A study of Mus musculus with 13 samples.

Results

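Gata2, Emx2, Pax8, Lhx1 and Pax2 encode transcription factors that build the nephric duct and the reproductive ducts. The group was taken as these 5 genes by name, and their probe sets (sets of short oligonucleotides that each report on 1 gene) were those annotated with a single gene symbol. By this rule 4 of the 5 genes had a probe set, 7 probe sets in all of 34945 with a single symbol. Pax2 was not analysed here. Lhx1 stayed below the filter on low intensity, so 3 members (Gata2, Emx2 and Pax8) were among the 15019 genes tested. The mean level of Gata2 was highest in the urogenital sinus, at 7.09-fold that of a newborn whole-mouse reference, and Emx2 was above the filter level on all 4 sinus arrays but on only 1 bladder and 1 urethra array. No member passed the test between any pair of the 3 regions. Genes called made up 2.54% of all in bladder against sinus, 0.0133% in urethra against sinus and 4.33% in bladder against urethra.

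The nephric (Wolffian) duct grows down the embryo until it meets the cloaca, whose ventral part becomes the urogenital sinus, and the Müllerian duct later follows it to the sinus wall. Pax2 and Pax8, paired-box factors, act together to specify the nephric lineage, and Lhx1, a LIM-homeodomain factor, is needed for the ducts to extend. Emx2, a homeodomain factor, is needed for the kidneys, gonads and genital ducts to form, and Gata2, a zinc-finger factor also known from blood progenitors, endothelium and neurons, acts in the urogenital tract on the position and form of the ureter and the male ducts.

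The arrays hold RNA from FVB/N mouse embryos at embryonic day 14. FVB/N females had been mated to males carrying the SMGA/EGFP transgene, in which the smooth muscle gamma-actin (Actg2) promoter drives a green fluorescent protein, and its fluorescence guided the microdissection. The groups were bladder (3 arrays, replicates 2, 6 and 8), urogenital sinus (4 arrays, replicates 1, 2, 6 and 7) and urethra (3 arrays, replicates 1, 2 and 6), unpooled and of unknown sex. Arrays numbered 1 or 2 came from Theiler stage 21 and the remaining region arrays, numbered 6 to 8, from Theiler stage 22. The newborn reference (3 arrays) pooled whole wild-type FVB/N animals, 4 male and 4 female, taken on postnatal day 1. The labels do not say whether region arrays came from separate embryos, and a p-value here therefore weighs a difference against the scatter of these arrays only, which may be technical.

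Several features of the arrays bear on every value. Bladder arrays had median intensities of 142 to 238, sinus arrays 259 to 389, urethra arrays 221 to 378 and reference arrays 278 to 455, so a typical gene was dimmest in bladder. Sinus replicate 1 and urethra replicate 1 were rich in the embryonic globin Hbb-bh1 (15.04 and 14.51 on the log2 scale, against 5.65 to 10.51 on the other arrays). The mean log2 intensity of 10 neuron markers was 12.49, 12.02 and 11.02 on sinus replicates 2, 6 and 7, and 7.50 to 9.84 on the other region arrays. Of 12 markers of sinus epithelium and urothelium, the mean was 11.42 to 13.42 on every region array. The mean of 8 smooth muscle markers was 10.82 to 11.39 in bladder, 10.30 to 11.32 in urethra and 8.01 to 9.61 in sinus. Of the 8, 5 were called higher in bladder than in sinus, where 122 of all 15019 genes were. The list holds Actg2, whose promoter guided the dissection, so it is not independent of how the tissue was taken. Des went the other way (6.36 in bladder, 8.66 in sinus). For kidney, the mean of 6 markers of differentiated kidney was 6.31 to 7.50 on the region arrays and 9.56 to 9.76 on the reference arrays. Of the gonad markers Amh, Dmrt1, Ddx4 and Dazl did not pass the filter, and the mean of the 4 that did was 7.53 to 8.86 on the region arrays and 8.46 to 9.07 on the reference arrays.

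The upstream sequences of the members show a feature that the choice of genes did not use. The 250 bases before the annotated start were read from RefSeq (mouse build GRCm38.p6), which gave 8 starts for all 5 genes. Of these, 4 are printed 5′ to 3′ because they belong to the 3 members whose levels were tested, with each CG dinucleotide in capitals:

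Gata2, start 1 (chr6:88193641-88193890, plus strand): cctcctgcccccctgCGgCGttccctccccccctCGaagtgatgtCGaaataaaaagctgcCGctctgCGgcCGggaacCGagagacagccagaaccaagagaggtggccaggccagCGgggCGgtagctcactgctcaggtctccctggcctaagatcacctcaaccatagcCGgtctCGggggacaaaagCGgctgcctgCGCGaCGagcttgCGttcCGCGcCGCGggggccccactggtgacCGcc
Gata2, start 2 (chr6:88198414-88198663, plus strand): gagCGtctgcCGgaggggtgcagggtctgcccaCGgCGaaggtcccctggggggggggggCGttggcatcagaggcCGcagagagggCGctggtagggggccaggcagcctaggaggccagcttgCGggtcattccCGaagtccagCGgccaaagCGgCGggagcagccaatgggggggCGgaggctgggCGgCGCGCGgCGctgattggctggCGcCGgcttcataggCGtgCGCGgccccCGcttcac
Emx2 (chr19:59458440-59458689, plus strand): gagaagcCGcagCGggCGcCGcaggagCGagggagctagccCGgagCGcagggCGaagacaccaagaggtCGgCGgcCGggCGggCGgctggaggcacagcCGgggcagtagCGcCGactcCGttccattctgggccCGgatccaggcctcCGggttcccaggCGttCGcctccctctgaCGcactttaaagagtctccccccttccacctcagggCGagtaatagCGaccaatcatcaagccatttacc
Pax8 (chr2:24475600-24475849, minus strand): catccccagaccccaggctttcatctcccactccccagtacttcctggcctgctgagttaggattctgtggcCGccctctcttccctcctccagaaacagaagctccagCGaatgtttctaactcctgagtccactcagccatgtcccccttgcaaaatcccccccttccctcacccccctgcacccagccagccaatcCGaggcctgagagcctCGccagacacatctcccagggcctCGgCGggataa

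The Gata2 windows held 22 and 24 CG dinucleotides and the Emx2 window 24, while the Pax8 window held 6. The median of all 32841 promoter windows was 6, and the upper decile was 25. The Lhx1 window held 26, and the 3 Pax2 windows held 5, 20 and 25. The windows were also searched on both strands for a GATA core (GATA after A or T and before A or G) and for the homeodomain core TAATTA. Neither was found in any of the 8 windows, while 26.5% and 4.84% of all windows held them, which says only that these letters are not in these stretches.

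Gata2 was measured by a pair of probe sets, both of a kind that binds several transcripts of the gene. On the one with the higher mean, used for the tests, the intensity was 3810, 4922 and 4046 on bladder replicates 2, 6 and 8. It was 13560, 15378, 12095 and 9841 on sinus replicates 1, 2, 6 and 7. In urethra it was 10915, 4842 and 3377 on replicates 1, 2 and 6. All 4 sinus arrays lay above all 3 bladder arrays, whereas urethra spanned both groups because replicate 1 was at the sinus level and replicates 2 and 6 at the bladder level. The reference arrays, at 1270, 2394 and 1827, lay below every region array.

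On the log2 scale the mean of Gata2 was 13.62 ± 0.27 in sinus (SD, n = 4), 12.46 ± 0.87 in urethra (n = 3), 12.05 ± 0.19 in bladder (n = 3) and 10.79 ± 0.46 in the reference (n = 3). Bladder was 2.97-fold below sinus, a log2 difference of -1.57 (SE 0.36, 95% confidence interval -2.37 to -0.77), but limma's adjusted p over all genes was 0.0529 and the gene was not called at 0.05. Of all genes tested, 2.54% were called in this comparison, 1.73% in the same direction, and for 10.6% all bladder arrays lay below all sinus arrays. Over 18 other settings of the analysis the adjusted p ran from 0.0021 to 0.294, and with 1 array left out from 0.0138 to 0.183. It was under 0.05 without urethra replicate 1 (0.0138) or 6 (0.0444) and above it without any of the other 8 region arrays. The direction was the same under each of those settings and with each array left out in turn. In these bulk samples fewer cells with the transcript and less transcript per cell cannot be told apart.

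The other Gata2 probe set gave the same order of the 3 region means. Its intensity was 406, 280 and 365 in bladder, 1979, 2161, 1345 and 1078 in sinus, 2852, 738 and 406 in urethra, and 256, 337 and 289 in the reference. Again all sinus arrays exceeded all bladder arrays, and urethra replicate 1 stood above all sinus arrays. Reference replicate 2 lay above bladder replicate 6. Over the 10 region arrays the log2 values of both probe sets had a Pearson r of 0.91, a description of probe sets that share the same RNA. The log2 difference of bladder from sinus was -2.19 on this probe set. When the most variable probe set stood for each gene, which chose this one, the adjusted p was 0.121.

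Urethra and sinus differed by -1.16 in Gata2 on the log2 scale (SE 0.36, interval -1.96 to -0.36), with an adjusted p of 0.309 in a comparison where 0.0133% of genes were called. Bladder and urethra differed by -0.41 (SE 0.38, interval -1.27 to 0.44, adjusted p = 0.518, limma), where 4.33% of genes were called. Its size depended on the setting: it was -1.45 on the other probe set (adjusted p = 0.238), 0.0662 without urethra replicate 1 and 0.0582 when the arrays were centred on their medians. The means ran from sinus through urethra and bladder to the reference on both probe sets, but neighbouring groups in that order did not differ by the test. The F test over the 3 regions gave an adjusted p of 0.0687, where 3.29% of genes were called.

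Against the newborn reference, Gata2 in the sinus passed the test, and no other member passed it in any region. The log2 difference was 2.83 (SE 0.53, interval 1.65 to 4.00, adjusted p = 0.00569, limma), and sinus and reference arrays did not overlap. In that comparison 13.8% of genes were called, 4.62% in the upward direction of Gata2, and for 13.2% all sinus arrays lay above all reference arrays. The call held with each of the 13 arrays left out in turn, and was lost on the other probe set (2.43, adjusted p = 0.118). Bladder exceeded the reference by 1.26 (SE 0.54, adjusted p = 0.148, limma) and urethra by 1.67 (SE 0.54, adjusted p = 0.0760, limma). On the other probe set the bladder difference was 0.25 (adjusted p = 0.893, limma) and the arrays overlapped, while the urethra difference was 1.70. Neither region passed, in comparisons where 17% and 13.2% of genes were called, though on the first probe set all bladder and all urethra arrays lay above the reference arrays, as they did for 19.7% and 19.3% of genes. Removing urethra replicate 6 or reference replicate 2 brought the urethra value to an adjusted p of 0.0299 or 0.0459, and removing urethra replicate 1 brought the bladder value to 0.0365. The 3 comparisons share the reference arrays, which are arrays of 1 kind of pooled RNA and entered the fit as 1 sample. Each SE and p therefore rests on the spread of the region arrays and assumes that the reference varies as they do.

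Other cell types that transcribe Gata2 gave the following levels. The mean of 9 blood markers was 10.12 on sinus replicate 1 and 9.83 on urethra replicate 1, and 8.46 to 9.24 on the other region arrays. Urethra replicate 1 was the urethra array with the most Gata2 and the highest mean of blood markers. Gata2 on sinus replicate 1 lay inside the range of the other sinus arrays. Without both arrays the bladder and sinus difference in Gata2 was -1.53 (adjusted p = 0.0148, limma). The mean of 8 endothelial markers was 10.10 to 10.26 in bladder, 9.49 to 10.32 in sinus and 9.49 to 9.95 in urethra. None of the 8 was called between bladder and sinus, where 2.54% of all genes were called. Their median difference there was 0.25 against -0.19 over all genes, with 6 values above 0 and 2 below. Where 1.73% of all genes were called lower in bladder than in sinus, 1 of 10 neuron markers was (Elavl3, a neuronal RNA-binding protein, -3.70). That call was kept in 5 of 10 analyses that left out 1 array. The count of neuron markers called lower was 4 without sinus replicate 1, where 473 of all 15019 genes were called lower. It was 7 without both arrays numbered 1, where 556 of all 15019 genes were called lower. The median of the list was -2.61 against -0.19 over all genes. On sinus replicates 1, 2, 6 and 7 the neuron mean was 7.50, 12.49, 12.02 and 11.02, and Gata2 was 13560, 15378, 12095 and 9841. The part of blood, endothelial or neuronal cells in the Gata2 difference was not tested.

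**Figure D1:**
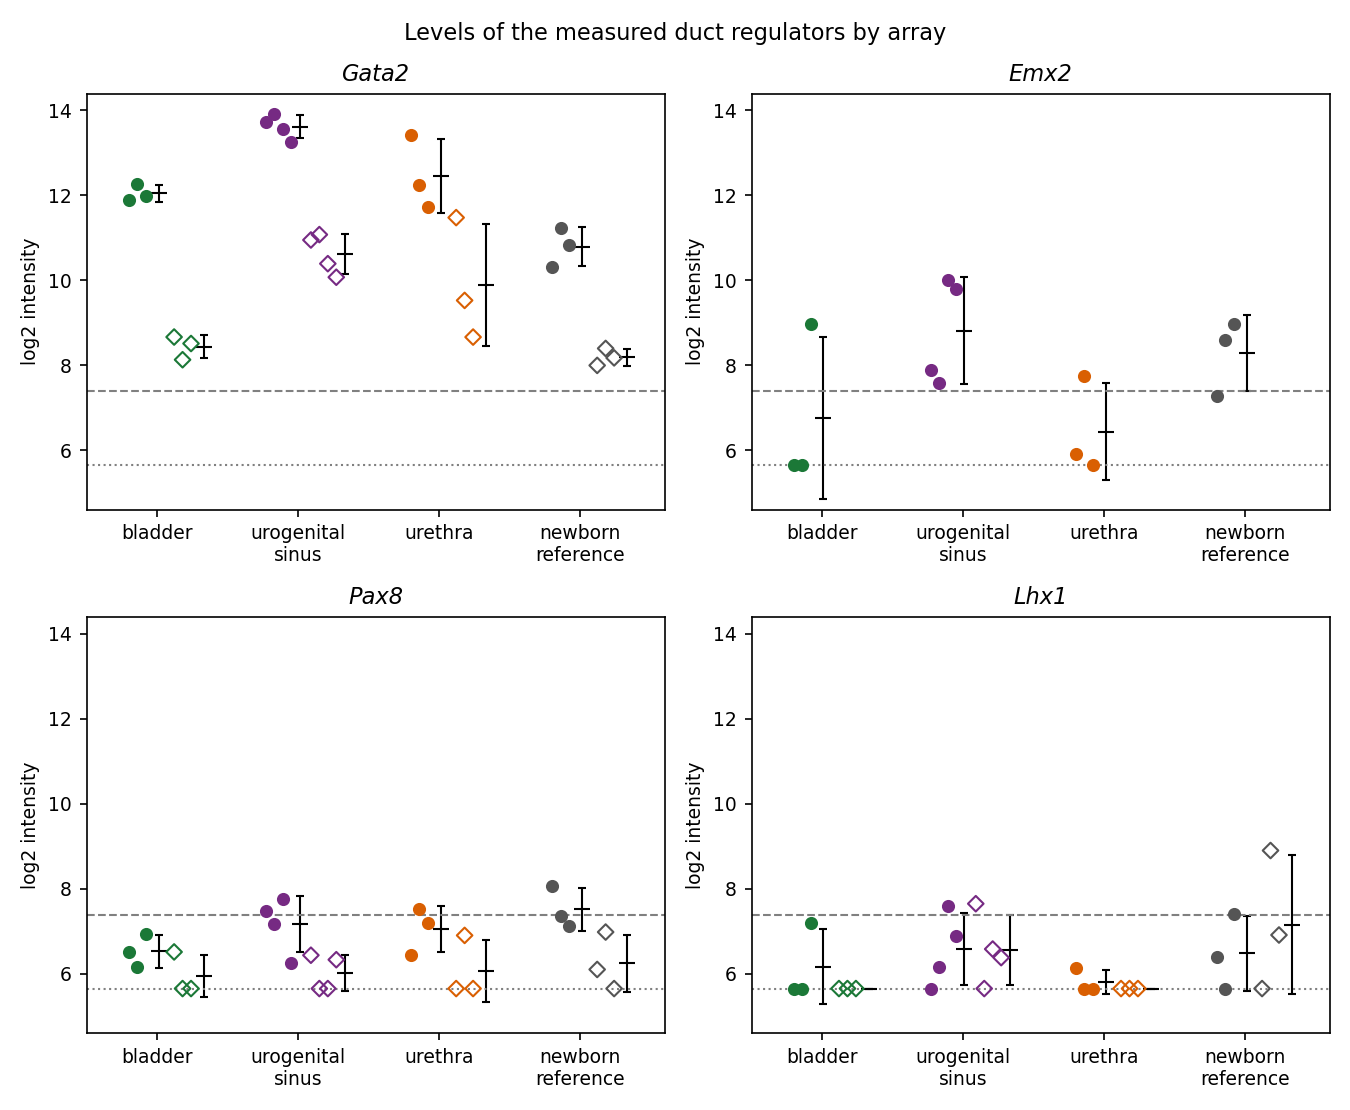
Log2 intensity of the 4 measured duct regulators on each of the 13 arrays, by group. Filled circles are the probe set with the higher mean and open diamonds the other one, black ticks with bars are the mean and SD, the dotted line is the floor (5.65) and the dashed line the filter level (7.39). The mean of Gata2 is highest in sinus on both probe sets while urethra replicate 1 is the highest single diamond, the Emx2 points of each region are widely spread, and most points of Pax8 and Lhx1 lie under the filter level.

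Emx2 was measured by 1 probe set, and its values split within regions. The intensity was 34.6, 34.5 and 499 on bladder replicates 2, 6 and 8. It was 236, 193, 1027 and 882 on sinus replicates 1, 2, 6 and 7. In urethra it was 60.4, 214 and 7.54 on replicates 1, 2 and 6. All 4 sinus arrays were above the filter level of 167.76, while the only bladder array above it was replicate 8 and the only urethra array replicate 2. The groups overlap, because both of those arrays fall inside the sinus range. The reference gave 154, 389 and 501.

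After flooring, the log2 mean of Emx2 was 8.82 ± 1.25 in sinus (SD, n = 4), 6.75 ± 1.91 in bladder (n = 3), 6.44 ± 1.14 in urethra (n = 3) and 8.28 ± 0.90 in the reference (n = 3). Differences from the sinus were -2.06 in bladder (SE 0.96, interval -4.20 to 0.08, adjusted p = 0.305, limma) and -2.38 in urethra (SE 0.96, interval -4.52 to -0.24, adjusted p = 0.440, limma). With no floor they were -2.42 and -3.29, and neither passed. The bladder difference was -3.17 without bladder replicate 8, and with weights fitted for each array both differences passed (-3.57, adjusted p = 0.00553 and -3.49, adjusted p = 0.0475, limma). Those weights also raised the genes called from 382 to 2668 in bladder against sinus and from 2 to 664 in urethra against sinus. Bladder and urethra differed by 0.32 (SE 1.02, adjusted p = 0.872, limma), a value whose sign changed with the setting. Against the reference the differences were 0.54 in sinus, -1.52 in bladder and -1.84 in urethra, with SEs of 1.40, 1.45 and 1.45, and none passed.

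Within the sinus, both arrays at stage 22 (replicates 6 and 7) had more Emx2 than both at stage 21. The stage 22 minus stage 21 difference was 2.16 in sinus, 1.66 in bladder and -1.18 in urethra on the log2 scale. Averaged over regions it was 1.06 (SE 0.79, adjusted p = 0.431, limma), and the test of whether this difference varies with region did not pass (adjusted p = 1). Between stages 0% of all genes were called by limma (25.5%, 3830 genes, at an unadjusted p under 0.05, and 1421 genes with array weights). The stage difference was -0.42 for Gata2 and -0.07 for Pax8, neither of which passed (adjusted p = 0.376 and 0.934, limma), and the Pax8 value changed sign under other scalings.

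Emx2os, a non-coding RNA read from the opposite strand next to Emx2, was looked up after the Emx2 values were seen. Its intensity was 76.2, 83 and 100 in bladder, 284, 71, 302 and 220 in sinus, 51.1, 133 and 15.6 in urethra, and 98.6, 183 and 185 in the reference. Sinus was again the region with the highest arrays, with the exception of replicate 2. Over the 10 region arrays Emx2 and Emx2os had a Pearson r of 0.79, but bladder replicate 8, high for Emx2, was at 100 for Emx2os. Whether probes of one respond to the other could not be told from these files.

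The 3 genes whose log2 values ran closest to Emx2 over the 10 region arrays were Calb1 (Pearson r = 0.97), which encodes the calcium-binding protein calbindin, Dcdc2a (0.95), a doublecortin-domain protein of cilia and microtubules, and Lrrc8c (0.94), a subunit of volume-regulated anion channels. These are the highest of 14954 correlations over arrays that share 3 regions, and are given as a description. Calb1 was 35.4, 60.2 and 344 in bladder, 166, 288, 1333 and 1352 in sinus, 94.1, 191 and 63.9 in urethra, and 4460, 2404 and 1164 in the reference. Dcdc2a was 110, 75.6 and 1400 in bladder, 1107, 715, 2839 and 2845 in sinus, 43.9, 325 and 172 in urethra, and 1739, 2912 and 487 in the reference. Like Emx2, both were far higher on bladder replicate 8 than on the other bladder arrays, highest of the region arrays on sinus replicates 6 and 7, and highest among the urethra arrays on replicate 2. The likeness did not extend to the reference, where Calb1 was highest on replicate 1 and Emx2 lowest. None of the 3 was called between bladder and sinus (adjusted p = 0.214, 0.205 and 0.361, limma). On bladder replicate 8 the 3′ to 5′ ratio of the actin control probe sets was also the highest of all arrays (4.04 on the log2 scale, against 1.21 to 3.42 on the others), and its part in these values was not tested.

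Among genes of the duct lists, those closest to Emx2 were Wt1 (r = 0.84), a zinc-finger factor of nephrogenic and coelomic tissue, Wnt9b (0.80), the duct-derived signal to surrounding mesenchyme, Amhr2 (0.78), the receptor for anti-Müllerian hormone, and Cdh16 (0.76), a kidney and duct cadherin. Wt1 was at 8.32, 8.18 and 10.44 on the log2 scale in bladder, 10.26, 10.62, 11.19 and 10.25 in sinus and 7.41, 8.33 and 6.33 in urethra. Bladder replicate 8 reached the sinus level for Wt1 as well, and all urethra arrays were below all sinus arrays. That urethra and sinus difference was -3.22 (SE 0.63, adjusted p = 0.126, limma) and was not called. The share of all genes with such a gap between urethra and sinus is not given here.

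**Figure D2:**
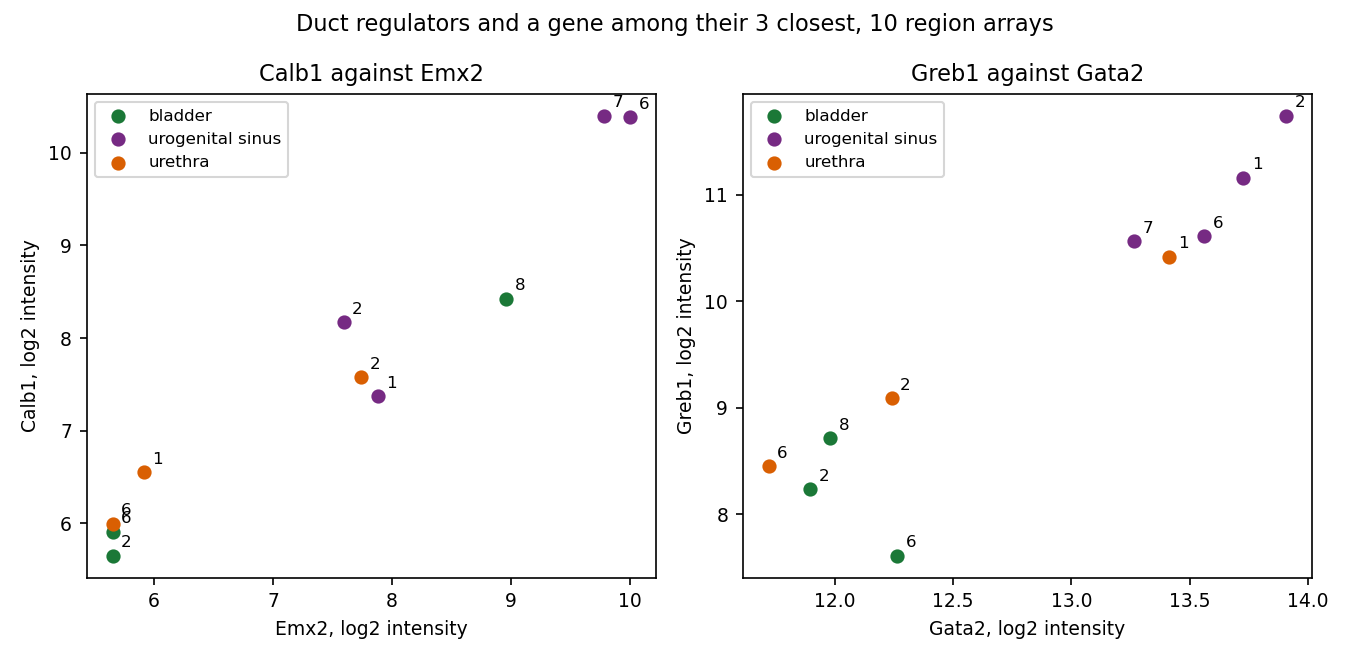
Log2 intensity on the 10 region arrays of Calb1 against Emx2 (left, r = 0.97) and of Greb1 against Gata2 (right, r = 0.94), with colours for regions and numbers for replicates. On the left, bladder replicate 8 lies apart from the other bladder arrays and near the sinus arrays. On the right, urethra replicate 1 lies with the sinus arrays.

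For Gata2 the closest genes were Slc17a9 (r = 0.94), a vesicular nucleotide transporter, Greb1 (0.94), a gene known as an estrogen and androgen target, and Il3ra (0.93), a chain of the interleukin-3 receptor. Greb1 was 301, 195 and 419 in bladder, 2284, 3426, 1563 and 1514 in sinus, 1367, 544 and 350 in urethra, and 180, 181 and 33.5 in the reference. All sinus arrays exceeded all others, and, as for Gata2, urethra replicate 1 was the array nearest to them. For 10.6% of all genes tested, all bladder arrays lay below all sinus arrays. The log2 difference of Greb1 in bladder from sinus was -2.83 (SE 0.51, adjusted p = 0.0235, limma), a call made under 21 of 28 other settings. It was lost without bladder replicate 2 or 6 or sinus replicate 2 or 6 (adjusted p = 0.106, 0.117, 0.0704 and 0.0571, limma). It was also lost after quantile normalization, with arrays centred on their medians and with the title number as a fixed block (adjusted p = 0.0681, 0.124 and 0.0814, limma). Slc17a9 and Il3ra were not called (adjusted p = 0.158 and 0.125, limma). Between the members themselves r was 0.44 for Emx2 and Gata2, 0.39 for Pax8 and Emx2 and 0.23 for Pax8 and Gata2.

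Pax8, a partner of Pax2 in nephric specification and also a thyroid factor, was dim on all arrays. On the probe set used for the tests the intensity was 91.4, 71.2 and 122 in bladder, 179, 143, 218 and 76.6 in sinus, 87.5, 183 and 146 in urethra, and 270, 164 and 139 in the reference. It exceeded the filter level on 2 sinus arrays, 1 urethra array, 1 reference array and no bladder array. Bladder arrays all lay below the reference arrays, as they did for 31.3% of genes, and all other pairs of groups overlapped. The log2 means were 6.53 ± 0.39 in bladder, 7.17 ± 0.65 in sinus, 7.05 ± 0.55 in urethra and 7.51 ± 0.50 in the reference (SD, n = 3, 4, 3 and 3). Bladder differed from sinus by -0.64 (SE 0.41, interval -1.55 to 0.28, adjusted p = 0.440, limma), urethra from sinus by -0.11 (interval -1.03 to 0.80) and bladder from the reference by -0.98 (interval -2.37 to 0.40). No Pax8 difference passed, and the sign of the urethra and sinus difference changed with array centring.

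The other Pax8 probe set was at or near the floor on most arrays (3.73 to 126), and its r with the first was 0.13. The closest genes to Pax8 were Mrps23 (r = 0.91), a mitochondrial ribosomal protein, Dgkeos (0.89), an antisense transcript, and Dnah9 (0.88), a dynein heavy chain of motile cilia, none of them called between regions. The tested Pax8 probe set was above the floor on every array but under the filter level on most. Its intervals between regions all spanned 0, so differences between these low levels were not resolved.

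Lhx1 had a pair of probe sets, neither of which passed the filter. The first gave 8.90, 20.2 and 145 in bladder, 14.6, 71.7, 194 and 118 in sinus, 70.2, 5.05 and 18.9 in urethra, and 83.9, 44.1 and 170 in the reference. The second was under the floor of 50.23 on all bladder and urethra arrays (6.29 to 41.3), and gave 201, 42.5, 95.7 and 83.2 in sinus and 23.2, 478 and 120 in the reference. Both had their brightest region arrays in the sinus, but on different replicates (6 and 1), and their r was 0.14. When every gene was tested without the filter (18193 genes), Lhx1 differed by -0.41 between bladder and sinus (SE 0.53, adjusted p = 0.733, limma) and by -0.76 between urethra and sinus (SE 0.53, adjusted p = 0.678, limma).

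**Figure D3:**
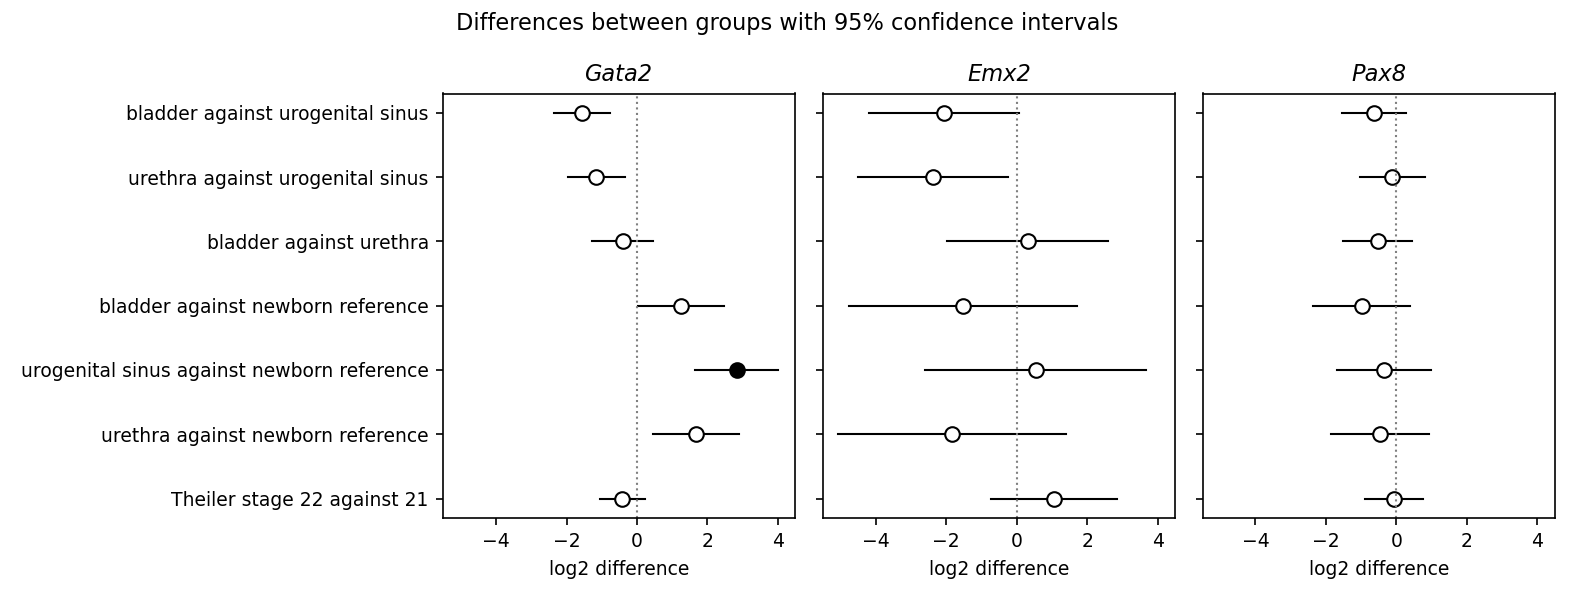
Log2 differences of Gata2, Emx2 and Pax8 in the 7 comparisons, first group minus second, with 95% confidence intervals. The filled point passed at an adjusted p under 0.05 (Gata2, sinus against reference, 2.83), and open points did not pass. The Gata2 intervals against sinus lie wholly below 0, the Emx2 intervals are the widest, and centring on array medians moves Gata2 between bladder and urethra to 0.0582.

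Genes that work with the members were read from lists of duct and nephrogenic genes. Of 11 tested genes of the duct epithelium and ureteric bud, 3 were lower in bladder than in sinus and none was higher. Such lower calls made up 1.73% of all genes. The list had a median of -1.37 against -0.19 over all genes, and 10 of 11 values were below 0. The called genes were Gfra1, co-receptor for the duct growth signal GDNF (-2.23, SE 0.28, adjusted p = 0.00584, limma), Gata3, a duct factor and relative of Gata2 (-2.44, SE 0.35, adjusted p = 0.0111, limma), and Sall4, a zinc-finger factor (-3.67, SE 0.65, adjusted p = 0.0217, limma). Gata3 was 10.24, 10.22 and 10.38 on the log2 scale in bladder, 12.79, 13.29, 12.41 and 12.41 in sinus, and 13.88, 12.73 and 12.47 in urethra. As for Gata2, its sinus and urethra arrays overlapped, but unlike Gata2 all its urethra arrays were above all bladder arrays. The share of all genes with that gap between urethra and bladder is not given here. Only Gfra1 was called with each of the 10 arrays left out; Gata3 lost its call without bladder replicate 2 or 6, and Sall4 without either of those or sinus replicate 2, 6 or 7. When arrays were centred on their medians, none of the 3 was called.

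Ret, the receptor tyrosine kinase that pairs with Gfra1, was 8.87, 8.59 and 9.63 in bladder and 9.73, 13.75, 13.07 and 11.66 in sinus, a difference of -3.02 (SE 0.82, adjusted p = 0.0916, limma) that was not called. Its low sinus array was replicate 1, the one low in neuron markers. Of the 11 genes Spry1, a feedback inhibitor of this receptor, was the only one with a value above 0 (0.99, adjusted p = 0.230, limma). Between bladder and urethra 3 of the 11 were lower in bladder (Gata3 at -2.75, Gfra1 at -2.69 and Npnt, a matrix ligand of the ureteric bud, at -1.72). None was higher, and lower calls there made up 2.62% of all genes. Npnt kept its call in 2 of 10 analyses that left out 1 array, and Gata3 and Gfra1 in all 10; none of the 3 was called with arrays centred.

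The median of 18 tested genes of nephrogenic and duct mesenchyme was -1.54 in bladder against sinus. None was called higher, and against a share of 1.73% of all genes, 6 of the 18 were called lower. Among them were Sall1 (-4.65, SE 0.78, adjusted p = 0.0186, limma), a zinc-finger factor of metanephric mesenchyme, and Eya1 (-3.07, SE 0.54, adjusted p = 0.0213, limma), a coactivator upstream of GDNF. Sall1 was at the floor on bladder replicates 2 and 6, so the size of its difference depends on the floor and not only on the signal. Six2, a nephron progenitor factor (-2.91), and Bmp7, a bone morphogenetic protein of the nephron progenitors (-1.80), were also called. Sall1 and Eya1 kept their calls in 6 of 10 analyses that left out 1 array, and lost them without bladder replicate 2 or 6 or sinus replicate 2 or 6. Bmp7 kept its call in 4 of 10, Six2 in 1 of 10, and the remaining called genes in 1 or 2 of 10. The count depended on single arrays, since it was 0 without bladder replicate 2, 0 when arrays were centred on their medians and 7 without both arrays numbered 1. Between bladder and urethra 7 of 18 were lower in bladder, and of these Sall1 (-5.92), Foxc1 (-2.83) and Bmp7 (-2.49) were called with each of the 10 arrays left out. Lower calls in that comparison made up 2.62% of all genes. The count of 7 was 3 without bladder replicate 2, 2 with arrays centred and 1 with title style as a block. Between urethra and sinus none of the 29 genes of both lists was called, but only 0.0133% of all genes were. The list medians there were -0.17 and 0.10 against 0.05 over all genes.

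Against the newborn reference the sinus had 2 of 11 duct genes higher (Gfra1, 2.80; Gata3, 1.79) and urethra the same 2 (3.26 and 2.09), while bladder had none. Of the mesenchymal genes 3 were higher in sinus (Hoxa10, Bmp4 and Eya1), 4 in urethra (those 3 and Foxc1) and 2 in bladder (Hoxa10 and Itga8). No gene of either list was called lower than the reference. The bladder count was 0 without bladder replicate 8, and the urethra count ranged from 3 to 7 with 1 array left out. Of all genes, 4.62%, 4.36% and 5.82% were called higher than the reference in sinus, urethra and bladder. With 1 array left out, the sinus call of Gata3 was kept in 4 of 13 analyses and that of Gfra1 in all 13.

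Among 12 tested paralogs of the members (Pax, Lhx, Emx and Gata genes), Gata3 was the only one called between bladder and sinus, where 2.54% of all genes were. For Gata6, another GATA factor, the order of the regions was another, with 13.67, 13.23 and 12.92 on the log2 scale in bladder, 12.72, 11.81, 11.18 and 10.18 in sinus and 10.19, 10.44 and 8.74 in urethra. All bladder arrays were above all sinus and urethra arrays, and the share of all genes with such a gap is not given here. It was higher in bladder than in urethra by 3.48 (SE 0.63, adjusted p = 0.0196, limma), a call lost without any 1 bladder array or urethra replicate 1 or 6, and its difference from sinus, 1.80 (SE 0.59, adjusted p = 0.153, limma), did not pass. Pax3 and Lhx2, factors of neural crest, muscle and forebrain, were lower than the reference in all 3 regions, and Lhx2 was at the floor on all 10 region arrays. Against the reference 17%, 13.8% and 13.2% of all genes were called in bladder, sinus and urethra, in either direction.

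**Figure D4:**
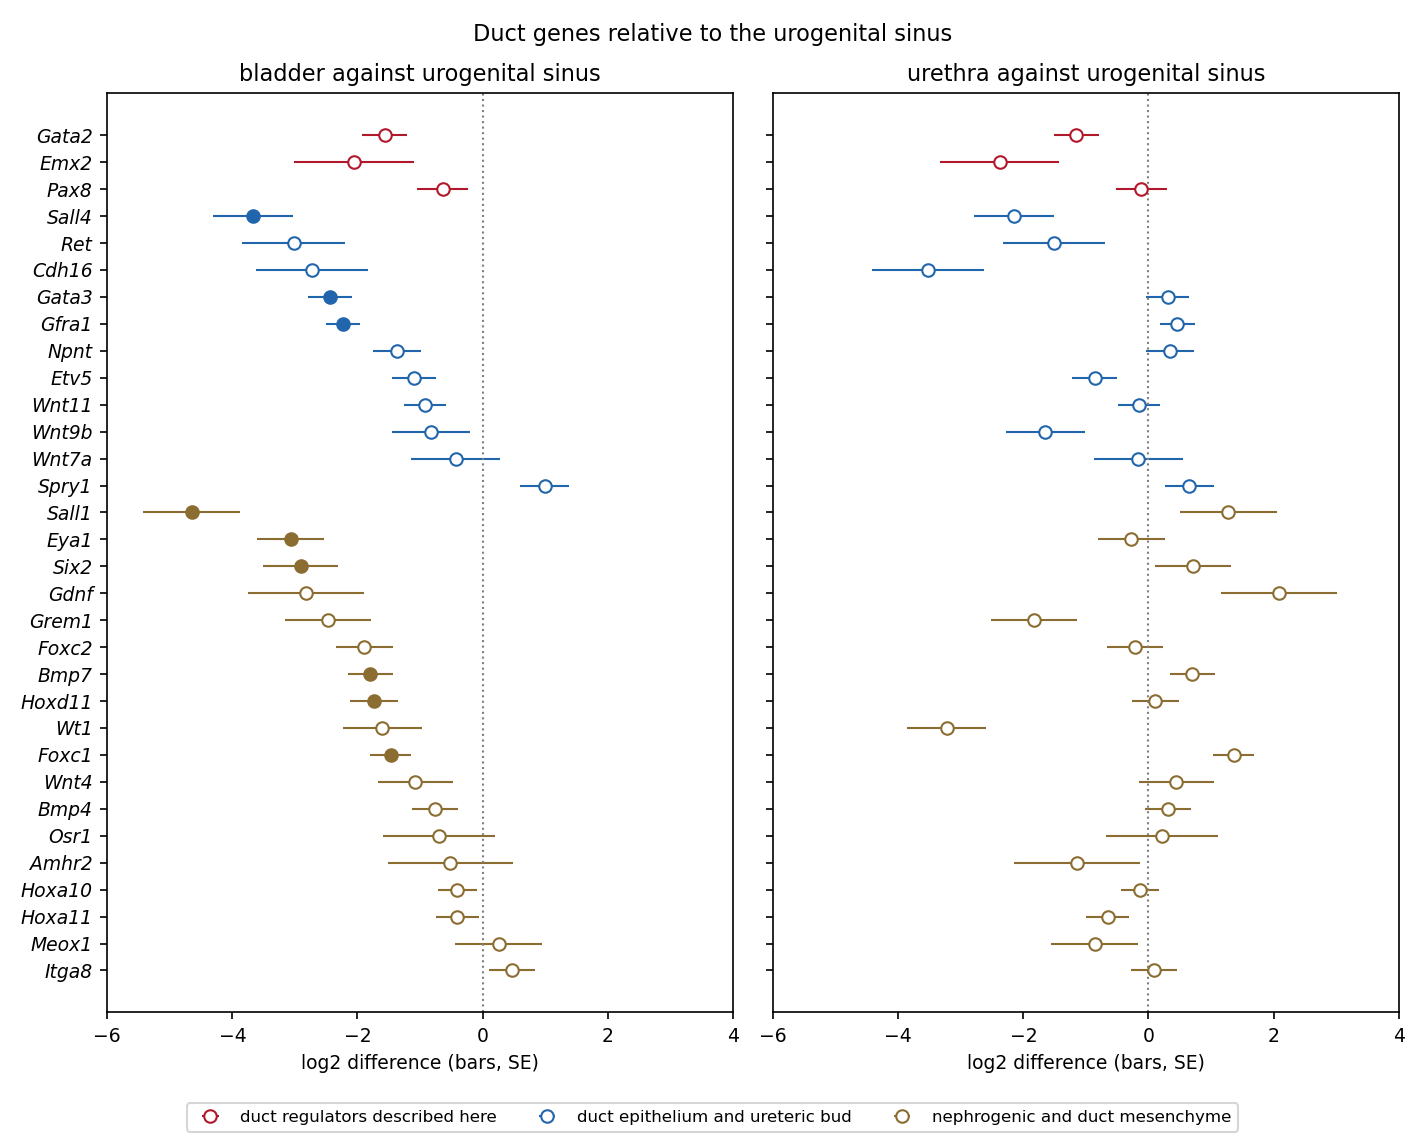
Log2 difference of the 3 tested members, 11 duct epithelium genes and 18 nephrogenic mesenchyme genes in bladder (left) and urethra (right) relative to the urogenital sinus. Points are the fitted differences, bars the SE, and filled points passed at an adjusted p under 0.05 (9 in bladder, of which none passed when arrays were centred on their medians, and none in urethra). Gata2 and Emx2 lie below 0 in both panels.

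The titles of the arrays are written in 3 styles, and the labels do not say whether these mark batches. Within the style that holds 2 bladder and 3 sinus arrays, bladder minus sinus was -1.65 for Gata2, -2.84 for Emx2 and -1.14 for Pax8. In the style with 1 bladder and 1 sinus array the values were -1.28, -0.82 and 0.67. Gata2 and Emx2 kept their direction in both and Pax8 did not. The urethra arrays form a style of their own with 1 reference array, so urethra and title style are linked to the other regions only through the reference.

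Scaling matters for the size of these differences, since the authors' scaling left bladder dimmer at the median. With arrays centred on their medians the difference of Gata2 in bladder against sinus was -0.98 (adjusted p = 0.294, limma), against -1.57 as deposited. Relative to the median of all genes, Gata2 in bladder against sinus was -1.38 as deposited, -1.68 after quantile normalization and -1.36 after centring. The same relative values for Emx2 were -1.87, -1.78 and -1.99, and for Pax8 -0.45, -0.05 and -0.43.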

How the data were processed

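The values deposited by the authors are linear intensities of 45101 probe sets on Affymetrix MOE430 arrays, and the submitters' processing notes name GCOS, without a version. RNA was amplified in 2 rounds, per the labels' protocols. No source used here states further steps. Each array's deposited intensity had a 2% trimmed mean of 1500. Intensities were floored at the 20th percentile (50.23) and log2 transformed. Probe sets with at least 3 arrays above the 40th percentile (167.76) were kept, the one with the highest mean stood for a gene, and 15019 genes were tested.

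Tests used limma 3.58.1 under R 4.3.3 (eBayes with an intensity trend; two-sided p adjusted by the Benjamini-Hochberg method; called under 0.05). The 10 region arrays shared 1 fit with 7 residual degrees of freedom, and the mean of the 3 reference arrays entered as 1 sample. Random blocks used statmod 1.5.0. On simulated data for bladder against sinus, with independent normal scatter, 200 of 15019 genes were changed, all taken from those above the median intensity. Of these, 69% of changes of 2 and 100% of changes of 4 on the log2 scale were called, with 8 false calls. The shares do not cover dimmer genes.

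Named are every member, the 3 genes closest to each over the 10 region arrays, and up to 4 called genes of each list in each comparison. Emx2os, Ret, Spry1, Wt1, Wnt9b, Amhr2, Cdh16 and the paralogs' Gata6 difference from sinus fall outside this rule and were chosen after their values were seen. The members and the 10 lists (97 of 112 genes tested) were chosen with earlier results of these data known, so they are not independent of them. List counts under other settings were added after the data were seen. The number of arrays limits the precision, and detection calls were not analysed here.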

Additional observations from a re-analysis of the deposited data

How the results depend on the processing

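Gata2 kept its direction in bladder against sinus, urethra against sinus and each region against the reference under every setting run, and its call in sinus against the reference was lost only with the most variable probe set (0 members called in place of 1). In bladder against sinus, where 0 members were called, 1 was called with no floor, a filter at the 60th percentile, robust eBayes, only the groups compared, the reference as 3 samples, stage as a covariate or without both arrays numbered 1, and 3 with array weights; leaving out 1 array gave 0 to 1. Array weights gave 2 in urethra against sinus and over the 3 regions, and 1 in bladder and in urethra against the reference, as did the reference as 3 samples in those last comparisons and over the regions. No floor gave 1 over the regions, and leaving out both arrays numbered 1 gave 1 there and in bladder against the reference. Leaving out 1 array gave 0 to 1 in bladder and urethra against the reference and over the regions, 0 in the other region comparisons and between stages, and 1 in sinus against the reference.

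Signs turned as follows, and the causes were not tested. Pax8 in urethra against sinus (-0.11) was 0.0049 with arrays centred, 0.60 with title style as a block and 0.29 without both arrays numbered 1, and -0.42 to 0.19 with 1 array left out. Pax8 in sinus against the reference was 0.0638 with array weights. Pax8 between stages (-0.07) was 0.16 after quantile normalization, 0.20 centred, 0.0422 with a floor at the 40th percentile, 0.0792 with array weights and 0.11 with title style, and -0.28 to 0.23 with 1 array left out. In bladder against urethra Gata2 (-0.41) was 0.0582 centred and 0.0662 without both arrays numbered 1 (-0.78 to 0.0662 with 1 array left out), and Emx2 (0.32) was -0.0816 with array weights and -0.0349 with stage as a covariate (-0.79 to 0.97 with 1 array left out).

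The numbers in the array titles recur across regions. Deviations from the region means correlated between -0.17 and 0.36 over the 7 same-numbered pairs. Only the pair of sinus replicate 2 and urethra replicate 2 was below 0. Pairs with different numbers ran from -0.51 to 0.41, and 1 of 8 arrays correlated best with its own number. The main fit used no pairing, and whether the numbers mark shared embryos could not be told from these values. As a fixed replicate block the number gave 132 genes called in bladder against sinus in place of 382, Gata2 at -1.41 (adjusted p = 0.210, limma) and Emx2 in bladder against urethra at -1.07. As a random replicate block it gave 669 genes and 1 member called (Gata2, adjusted p = 0.0355, limma), 1 member over the regions, and Emx2 in bladder against urethra at -0.0189. The fixed block could not be fitted for the stage and reference comparisons.

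Counts of all genes called ranged widely: from 46 (without bladder replicate 6) to 2668 (array weights) around 382 in bladder against sinus, 0 to 664 around 2 in urethra against sinus, 55 to 1873 around 651 in bladder against urethra, 1776 to 5791 around 2557, 994 to 5270 around 2076 and 595 to 4196 around 1987 for bladder, sinus and urethra against the reference, 0 to 1421 between stages and 49 to 3204 around 494 over the regions. In bladder against sinus 122 were higher and 260 lower as deposited, 102 and 98 after quantile normalization, and 137 and 34 after centring, where the median of all genes moved from -0.19 to 0.04 and 0.38.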
